A study of Mus musculus with 7 samples.

Results

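The genes described here encode the proteins of the cytosolic ribosome. They were chosen by name: every symbol made of Rpl or Rps and a number, with or without trailing letters, together with Rpsa, Rplp0, Rplp1 and Rplp2, leaving out pseudogene symbols and the S6 kinases. The rule found 94 of the 55367 symbols in the expression tables. Of these, 55 carry a large-subunit name and 38 a small-subunit name, and 1, Rps19bp1, encodes a protein that binds Rps19 and is no ribosomal protein. A core of 77 genes, 46 of the large and 31 of the small subunit, holds 1 gene for each protein. The other 16 symbols are paralogs or copies of a core gene.

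Ribosomes read messenger RNA on the small subunit and join amino acids on the large one, and each ribosome needs its proteins in equal numbers, apart from the acidic stalk proteins, which are present in several copies. Mammalian ribosomal protein mRNAs start with a cytidine followed by a run of pyrimidines, the terminal oligopyrimidine or TOP motif, through which mTOR signalling and the RNA-binding protein Larp1 govern their translation and stability. Red cell precursors build their ribosomes early and later spend most of them on globin, and inherited loss of 1 copy of a ribosomal protein gene causes Diamond-Blackfan anemia. Several ribosomal proteins hold a zinc ion between cysteine residues.

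The cells were G1E-ER4, a mouse erythroid progenitor line without a GATA1 gene of its own, in which a GATA1-estrogen receptor fusion becomes active, and maturation begins, once estradiol is added. All libraries came from this 1 line, whose medium contained erythropoietin and Kit ligand. The undifferentiated group was 1 library taken at 0 h with no estradiol. The control group was 3 libraries taken after 24 h of 100 nM estradiol, and the DTPA group was 3 libraries taken after 24 h of 100 nM estradiol with 50 µM DTPA, a metal chelator used here to restrict zinc, present from the start. Expression was given as TPM, a transcript level scaled to gene length and to the same total in each library. The replicates are labelled biological, but nothing says that they came from separate cultures, so that the p-values measure the spread between these libraries.

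Estimated depth was 17.6 M reads at 0 h, 17.7 to 18.6 M in the control and 19.8 to 21.2 M in the DTPA libraries. All 12 erythroid markers were detected, and their summed TPM was 13524 at 0 h, 55847 to 59896 in the control and 64554 to 82649 in the DTPA group. Only Hbb-bs, Hbb-bt and Alas2 among them were higher in every DTPA library than in every control library. Klf1 overlapped, and the other erythroid markers, Gata1 and Slc4a1 among them, were lower in every DTPA library. The summed TPM of 4 progenitor markers, of which Cd34 was at 0 throughout, was 597 at 0 h, 39.1 to 42.0 in the control and 77.4 to 86.3 in the DTPA group. For 5 megakaryocyte markers, all detected, the sums were 39.5, 9.08 to 12.7 and 42.4 to 51.5. Under DTPA, Itgb3 was at 14.8 to 16.1 TPM (3.3 at 0 h) and Gp1ba at 24.0 to 29.0 TPM (24.2 at 0 h). Gp9 was above its 0 h level in every DTPA library. Pf4 (0.58 to 1.39 TPM, 5.87 at 0 h) and Itga2b (0.89 to 1.05 TPM, 4.75 at 0 h) were below theirs. The part of these shifts in the ribosomal protein values was not tested. Lymphoid and myeloid or mast cell markers summed to at most 4.37 and 5.80 TPM at 24 h (43.6 and 14.9 TPM at 0 h; 4 and 6 genes, with Cd3e and Mpo at 0 throughout), and 3 fibroblast markers to 0.

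The start of the transcript is shown for 8 genes because the TOP motif, the feature that ribosomal protein mRNAs share, lies there. Each line gives the 20 bases before and the 20 bases from the start annotated by RefSeq (build GRCm38.p6), 5′ to 3′ on the gene's strand. Capitals mark the longest pyrimidine run that begins with C and has at least 5 bases.
Rps6, chr4:86857348-86857387, minus strand: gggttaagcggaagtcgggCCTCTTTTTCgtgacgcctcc
Rps18, chr17:33955646-33955685, minus strand: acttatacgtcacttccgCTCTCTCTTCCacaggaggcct
Rps27, chr3:90213629-90213668, minus strand: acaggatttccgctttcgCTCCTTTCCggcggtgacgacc
Rpl28, chr7:4792945-4792984, plus strand: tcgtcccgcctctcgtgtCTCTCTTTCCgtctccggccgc
Rplp2, chr7:141447631-141447670, plus strand: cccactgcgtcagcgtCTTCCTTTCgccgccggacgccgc
Rps27l, chr9:66946066-66946105, plus strand: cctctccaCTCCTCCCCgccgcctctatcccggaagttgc
Rpl22l1, chr3:28805488-28805527, plus strand: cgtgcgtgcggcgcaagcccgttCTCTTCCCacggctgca
Rpsa, chr9:120127746-120127785, plus strand: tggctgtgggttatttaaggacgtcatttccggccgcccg
In the first 5 genes the run spans the annotated first base. In the paralogs Rps27l and Rpl22l1 the marked run lies before or after it, and the Rpsa window holds no such run.

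The promoter table had 67 entries for 57 of the 77 core genes. A TOP motif, here a C at the annotated first base followed by a pyrimidine run of at least 5 bases in all, stood in 19.4% of the 67 entries and in 2.51% of all 32851 entries. Within 20 bases of the annotated first base the shares were 74.6% and 49.4%. In the 300 bases around the start, CCGGAAG, searched on both strands, stood in 37.3% of the ribosomal protein entries against 8.86% of all entries, and AAGATGGC in 10.4% against 2.75%. CACGTG stood in 11.9% against 7.15%, and AGATAA in 5.97% against 11.2%. CCGGAAG, the core of the ETS factor motif, stood in 25 of the 67 entries, and AAGATGGC, the core of the YY1 motif, in 7. Both were thus more frequent here than in all entries. AGATAA, the GATA motif, stood in 4 of the 67 and was less frequent. These differences were not tested, and some entries belong to the same gene. A match is a description of the letters.

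Of the 94 symbols, 86 reached 1 TPM in all 7 libraries and 84 reached 10 TPM, while 2, Rpl10l and Rps4l, were at 0 throughout and 3 stayed under 1 TPM. At 0 h, 52 members were at 1000 TPM or more. Together the members held 12.7% of all TPM at 0 h. The control libraries gave 8.16%, 8.08% and 7.65% (7.96% ± 0.276, SD, n = 3), and the DTPA libraries gave 10.9%, 10.4% and 10.7% (10.7% ± 0.218, SD, n = 3). The groups did not overlap: the control libraries were lowest, the DTPA libraries lay between them and the 0 h library. The large subunit made up 7.45% at 0 h, 4.82% ± 0.212 in the control and 6.42% ± 0.0804 under DTPA, and the small subunit 5.28%, 3.14% ± 0.0643 and 4.25% ± 0.138. Both subunits showed the same order. TPM are shares of a fixed total, so a lower share cannot be told apart from more RNA of other genes, and in bulk RNA fewer cells of a type cannot be told apart from less RNA per cell. Globin genes together held 0.913% of TPM at 0 h, 4.97% ± 0.227 in the control and 7.01% ± 0.978 under DTPA. Single globin genes differed in direction between control and DTPA. Hbb-bs went from 28189 to 30395 TPM in the control to 36794 to 46906 TPM under DTPA, and Hbb-bt was higher too. Hba-a1 went from 12590 to 15097 TPM to 10256 to 11865 TPM, and Hba-a2 was lower too.

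**Figure D1:**
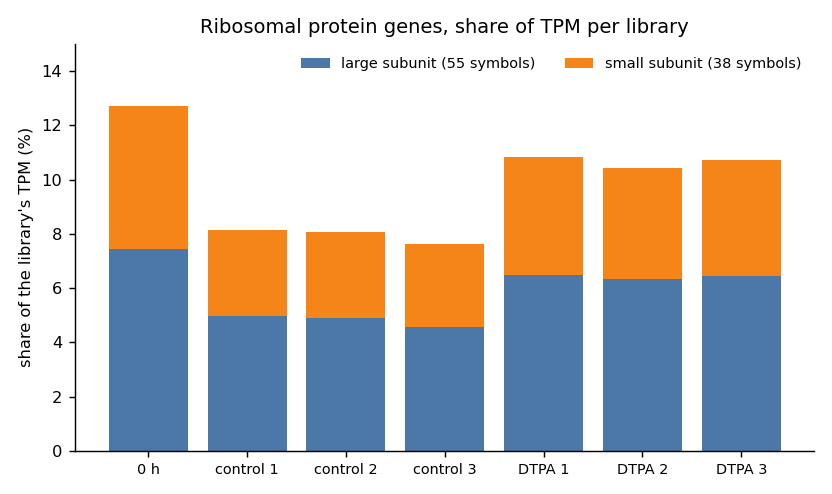
Share of each library's TPM, in percent, held by ribosomal protein genes, with large-subunit (blue) and small-subunit (orange) symbols stacked; each bar is 1 library. The bars reach 12.7% at 0 h, 7.65% to 8.16% in the control and 10.4% to 10.9% in the DTPA libraries.

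Levels differed widely between core genes. Their median was 1149.8 TPM at 0 h, 651 to 666 in the control and 876 to 896 in the DTPA libraries, and the highest, Rplp1, reached 8684 TPM at 0 h. The 6 most abundant by mean over all libraries were Rplp1, a stalk protein, Rpsa, the laminin-receptor protein of the small subunit, and Rpl4, Rpl28, Rps15 and Rpl23a. These 6 held 23.2% of the core's TPM at 0 h, 28.6% to 30.0% in the control and 26.5% to 28.7% in the DTPA libraries. The summed level of the large subunit was 1.46 times that of the small subunit at 0 h, 1.56 to 1.63 times in the control and 1.54 to 1.60 times under DTPA. Across the 77 genes, level and annotated exon length had a Spearman correlation of -0.49, a description over genes that share each library. Length is already part of the TPM scale, so level and length are not independent measures here. At 0 h Rplp1, the highest by TPM, had 25609 estimated reads over 499 exon bases. Rpsa had 103398 over 3170 and Rpl4 had 59908 over 2007. Rpl28, Rps15 and Rpl23a had 23412, 16879 and 13273 estimated reads. How far length sets the order of genes by TPM was not tested.

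The deposited values set limits on single genes. Median uniqueness was 75.6%: that share of a core gene's 50-base stretches occurs in no other gene's transcripts, and the lowest, Rpl35, had 16.0%. How reads that fit several genes were counted is not given in the sources used here. Of the 77 core genes, 72 had more than 1000 estimated reads in every library. Rpl24, a protein of the large subunit, had 2 to 17 estimated reads and 0.33 to 2.79 TPM, and 484 bases of its exons are shared with Gm28037. Rps10, a protein of the mRNA entry side, had 26 to 92 estimated reads, with 475 bases shared with RPS10-NUDT3. Both are thus genes that share exons with another annotated gene on the same strand.

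Between 0 h and 24 h of estradiol, most ribosomal protein mRNAs went down in share. All 3 control libraries were below the 0 h library for 74 of the 77 core genes, and the median core gene stood at 53.9% of its 0 h level. The share of all symbols with this order was not counted. In limma on log2(TPM + 1), 35 of 89 tested members were at least 2-fold lower at an adjusted p under 0.05, and 0 were higher (1 at an unadjusted p under 0.05 with no minimum fold). Median-of-ratios scaling gave 20 lower. Over all 11906 symbols tested, 24.3% were called lower and 15.1% higher. With no minimum fold, 78 members were lower and 1 was higher, against 43.6% and 30.9% of all symbols. The median log2 fold change of the members was -0.89 against -0.22 for all symbols. Among core genes, 19 of 46 large-subunit and 10 of 31 small-subunit genes fell at least 2-fold. The 0 h group is 1 library, assumed to vary like the groups at 24 h, and its values have no replicate check.

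**Figure D2:**
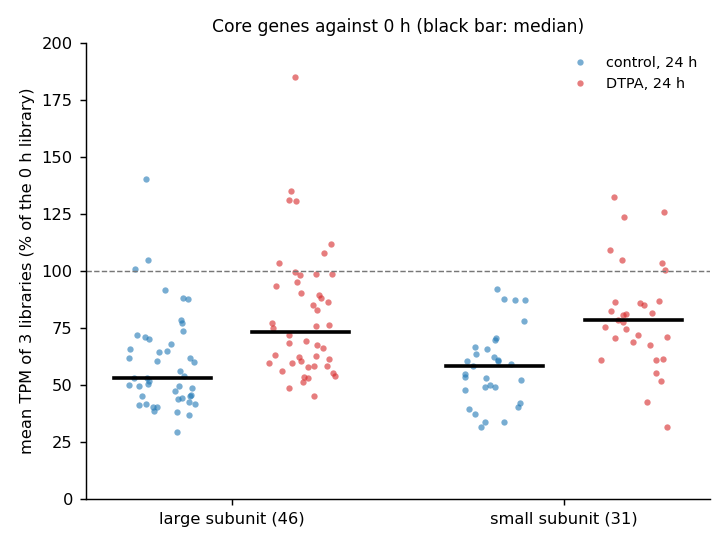
Mean TPM of the 3 control (blue) and 3 DTPA (red) libraries as a percent of the single 0 h library, 1 point per core gene, by subunit; black bars are medians and the dashed line is 100%. The medians are 52.9% and 73.4% for the large subunit and 58.5% and 78.3% for the small subunit.

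Among the deepest falls from 0 h to the control were those of Rpl12, Rps19bp1, Rps12 and Rpl36. Rpl12, a protein at the base of the stalk, went from 884 TPM at 0 h to 262, 259 and 261 in the control, or -1.76 on the log2 scale (SE 0.073, limma adjusted p = 6.06e-06). All 3 control libraries lay within a few TPM of each other and far under the 0 h library. Rps12, in the beak of the small subunit, went from 1097 to 362, 378 and 363 TPM (-1.57). Rpl36 went from 2122 to 873, 866 and 591 TPM (-1.47), and control replicate 3 was its lowest library. Rps19bp1 went from 116 to 35.1, 40.5 and 28.8 TPM (-1.72).

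At the other end of the range, Rpl28, a large-subunit protein found in eukaryotes, was the only member higher in the control with no minimum fold. It was at 2153 TPM at 0 h and at 3126, 3120.4 and 2803 TPM in the control (0.48, limma adjusted p = 0.00570), all above the 0 h library. Its share of the core's TPM went from 1.74% to 3.91% ± 0.105. Rpl10, which joins the large subunit late in its assembly, was at 1096 TPM at 0 h and 1139, 1163 and 1143 in the control (0.07), and Rpl23a, at the rim of the exit tunnel, at 2652 and at 2795, 2698 and 2532 TPM (0.01). Neither was called.

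The question of the DTPA groups was what zinc restriction does to maturing cells. At 24 h most ribosomal protein mRNAs were higher with DTPA than in the control. Of 87 tested members, 74 rose, 2 fell and 11 were not called. Among all 11147 symbols tested, 21.7% were called higher and 36.4% lower. The median log2 fold change of the members was 0.44, against -0.09 for all symbols. The 3 DTPA and 3 control libraries did not overlap for 77 members, against 65.0% of all symbols. In the core, 41 of 46 large-subunit genes rose (median 0.42) and 27 of 31 small-subunit genes rose (median 0.46), and 0 fell, at an unadjusted p under 0.05 as well. The median core gene had 1.36 times its control level under DTPA. Rpl19, at the exit tunnel, rose by only 0.15 at a limma adjusted p of 0.0496, and its call was lost without control replicate 1, 2 or 3, or without DTPA replicate 1 or 3.

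Other scalings gave similar counts of members and moved some single ones. Median-of-ratios scaling, which set the median of all symbols near 0 (0.00 in place of -0.09), gave 77 members higher and 1 lower. It called 3077 symbols higher and 3288 lower in place of 2415 and 4059. Quantile normalization gave 68 higher and 2 lower, with 3203 and 3111 over all symbols. Under it, 3 members that had risen, Rplp1, Rps29 and Rpl19, had a negative fold change.

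**Figure D3:**
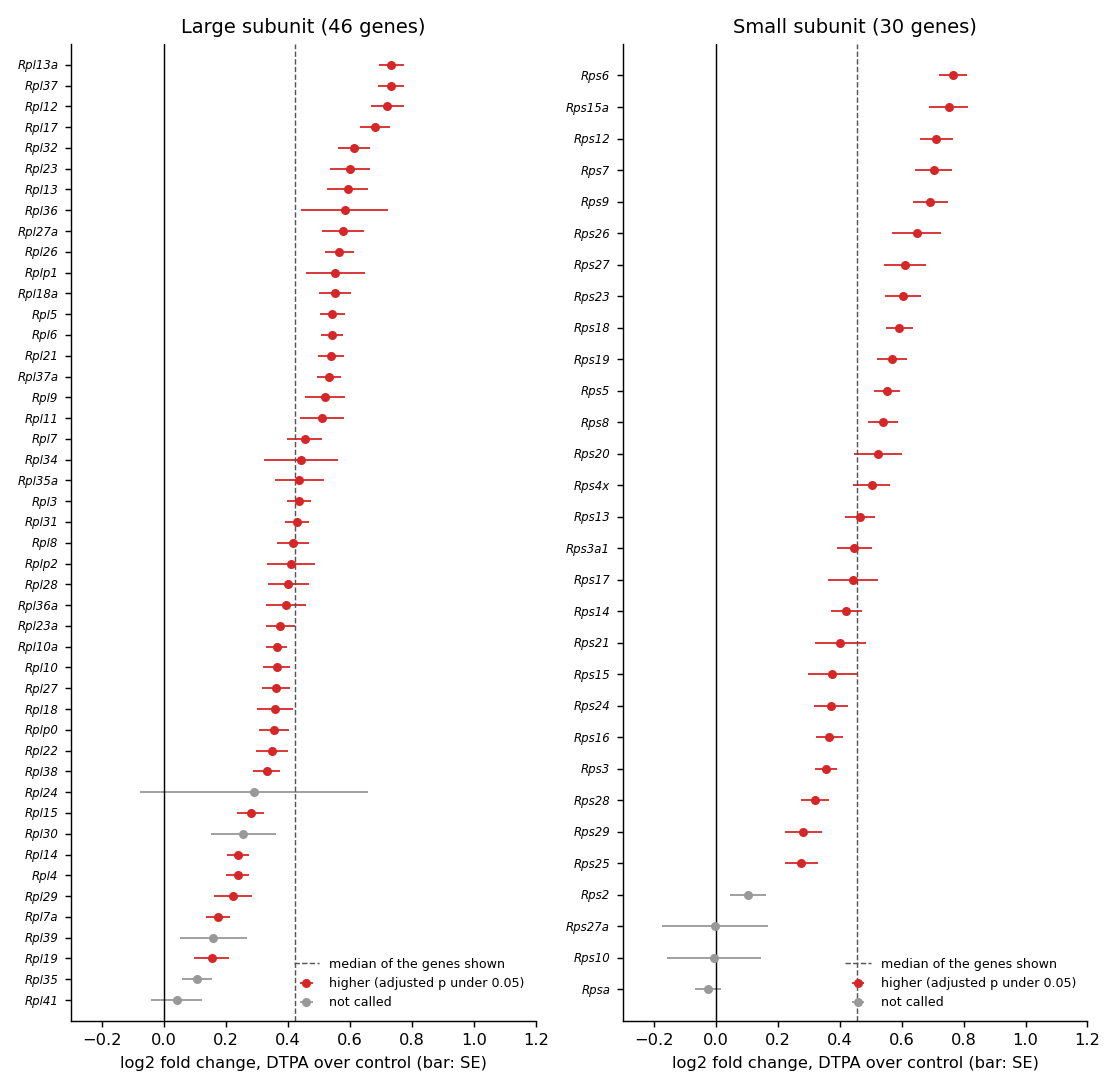
Log2 fold change of DTPA over control at 24 h for 76 core genes, ordered by size, with the large subunit on the left and the small on the right; bars are standard errors of the limma fit, red points are called higher and grey points are not called. Values run from 0.04 (Rpl41) to 0.73 (Rpl13a) in the large subunit and from -0.03 (Rpsa) to 0.77 (Rps6) in the small.

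Among the largest rises were those of Rps6, Rps15a, Rpl13a, Rpl37, Rpl12, Rps12 and Rps7. Rps6, the substrate of the S6 kinases, was at 1619, 1663 and 1671 TPM in the control and at 2948, 2679.7 and 2804 TPM with DTPA (0.77, SE 0.046, limma adjusted p = 6.90e-06). Its DTPA libraries lay on either side of its 0 h level of 2722 TPM. Rps15a, a small-subunit protein bound to the ribosomal RNA, was at 138, 143 and 144 TPM and at 265, 226 and 229 TPM (0.75).

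Rpl13a, which is released from the ribosome in the interferon response of myeloid cells, was at 135, 128 and 131 TPM in the control and 226, 219.9 and 213 TPM under DTPA (0.73). All 3 DTPA libraries exceeded its 0 h level of 168 TPM. Rps12 was at 647, 569.5 and 597 TPM under DTPA, above all control libraries and below 0 h (0.71). Rps7, of the mRNA exit side, went from 861, 817 and 832 TPM to 1472, 1262 and 1361 TPM (0.70). Each of these differences was larger than the spread between replicates.

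Of the stalk genes, which recruit the translation factors, 4 of 4 rose, with a median of 0.48. Most core genes rose as well, and 21.7% of all symbols were called higher. Rplp0, the stalk's base, was at 1626, 1642 and 1489 TPM in the control and 2036, 1991 and 2054 TPM under DTPA (0.36), a call lost under quantile normalization (0.05). Rplp1 was at 6710.5, 6508 and 5241 TPM and at 8619, 9332 and 8993 TPM (0.55, limma adjusted p = 0.00161), but -0.09 under quantile normalization. Control replicate 3 was the lowest for both. Rplp2, the partner of Rplp1, was at 432, 438 and 385 TPM and at 603, 505 and 562 TPM (0.41). Rpl12 was at 458, 400.1 and 436 TPM under DTPA (0.72), which left it at 48.8% of its 0 h level.

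Rpl5 and Rpl11, which carry the small ribosomal RNA of the large subunit and bind Mdm2 when assembly is disturbed, both rose. Rpl5 was at 501, 502 and 517 TPM in the control and 768, 717 and 731 TPM under DTPA (0.54). Rpl11 was at 446, 436 and 424 TPM and at 688, 561 and 618 TPM (0.51). Both had fallen at least 2-fold from 0 h to the control, from 1070.1 and 1047 TPM, Rpl5 not under median-of-ratios scaling (-0.92), and under DTPA they stood at 69.0% and 59.4% of 0 h.

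Of the 7 members listed as zinc-binding ribosomal proteins, 6 rose under DTPA and 0 fell, at an unadjusted p under 0.05 as well (median 0.53), where 68 of the 77 core genes rose. Rpl37 was at 721, 695 and 675 TPM in the control and 1200.1, 1145 and 1129 TPM under DTPA (0.73), and Rpl37a at 1047, 1046 and 1003 TPM and at 1455, 1502 and 1523 TPM (0.53). Both exceeded their 0 h levels of 1075 and 1337 TPM in every DTPA library. Rpl36a was at 296, 300.3 and 305 TPM and at 434, 363 and 389.7 TPM (0.39). Rps26, at the mRNA exit, was at 988, 985 and 834 TPM and at 1375, 1569.9 and 1453 TPM (0.65). Rps27 was at 488, 493 and 483 TPM and at 833, 694 and 718 TPM (0.61). All 5 had groups that did not overlap. Rps29, at the decoding side, was at 1496, 1555 and 1342 TPM and at 1714, 1819 and 1804 TPM (0.28), but -0.05 under quantile normalization.

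Rps27a, a fusion of ubiquitin and a small-subunit protein, was not called. It was at 607, 570.0 and 717 TPM in the control and 782, 480.3 and 658 TPM under DTPA (-0.00, SE 0.17). Its DTPA libraries scattered above and below the control libraries.

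Of 9 proteins at the exit tunnel and its rim, 7 rose (median 0.35). At the mRNA entry and decoding side 4 of 7 rose (0.36), and at the mRNA exit side 5 of 6 (0.49). None of these lists had a member that fell. Of 19 genes mutated in Diamond-Blackfan anemia, 17 rose and none fell (0.44). Most core genes rose and none fell. The mRNA entry and decoding side, with 4 of 7, had the lowest share of rises among these lists. Differences between the lists and the core were not tested. Of all symbols, 21.7% were called higher and 36.4% lower. Rps19, the gene most often mutated in that anemia, was at 412, 393 and 369 TPM in the control and 578, 570.0 and 595 TPM under DTPA (0.57, SE 0.048, limma adjusted p = 4.00e-05). Every DTPA library was above its 0 h level of 555 TPM.

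The 9 core genes not called in this comparison were Rpsa, Rpl41, Rps27a, Rps2, Rpl35, Rpl39, Rpl30, Rpl24 and Rps10, named after their values were seen. Rpsa was at 4916, 4905 and 4656 TPM in the control and 4800.4, 4644 and 4774 TPM under DTPA (-0.03, SE 0.042, limma adjusted p = 0.632), and the groups overlapped. Its share of the core's TPM was 6.25% ± 0.0406 in the control and 4.58% ± 0.0136 under DTPA, close to the 4.47% at 0 h. Rpl41, the shortest ribosomal protein, was at 2739, 2701 and 2308 TPM and at 2417, 2795 and 2752 TPM (0.04, SE 0.083). The groups interleaved. Rps2, at the mRNA entry, was at 479, 484 and 461 TPM and at 543, 468 and 524 TPM (0.10, SE 0.059), and Rpl35 at 1647, 1567 and 1490.5 TPM and at 1740.5, 1634 and 1684 TPM (0.11, SE 0.049). Median-of-ratios scaling called Rps2, Rpl35 and Rpl30 higher, and quantile normalization called Rps2 and Rpl30 higher and Rpl35 lower.

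**Figure D4:**
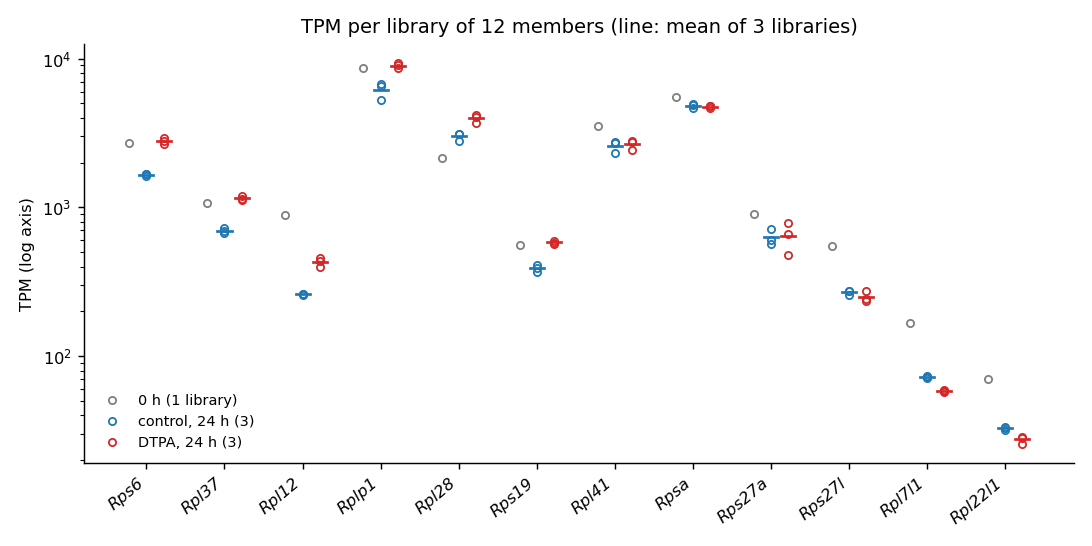
TPM per library, on a log axis, of 12 members at 0 h (grey, 1 library), in the control (blue) and under DTPA (red), with lines at the mean of 3 libraries. Rps6, Rpl37, Rpl12, Rplp1, Rpl28 and Rps19 separate the control from DTPA; Rpl41, Rpsa, Rps27a and Rps27l overlap; Rpl7l1 and Rpl22l1 are lower under DTPA.

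The 2 members that fell under DTPA were both paralogs. Rpl7l1, a paralog of Rpl7 that takes part in assembling the large subunit, was at 70.8, 73.8 and 72.3 TPM in the control and 59.4, 58.6 and 57.0 TPM under DTPA (-0.31, SE 0.040, limma adjusted p = 0.000431). The groups did not overlap, while its parent Rpl7 rose from 1664, 1671 and 1705 TPM to 2499.8, 2180.4 and 2239 TPM (0.45). Rpl22l1, a paralog of Rpl22, was at 33.3, 32.0 and 33.0 TPM and at 28.8, 25.6 and 28.3 TPM (-0.24, SE 0.058, limma adjusted p = 0.00808), a call that was lost under median-of-ratios scaling (-0.15) and quantile normalization (-0.11). Rpl22 rose from 208, 201 and 211 TPM to 284, 253 and 256 TPM (0.35). The difference between paralog and parent was not tested.

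Rps27l, a p53-inducible paralog of Rps27, was at 258, 274 and 275 TPM in the control and 275, 233 and 244 TPM under DTPA (-0.11, SE 0.065), and was called lower only without DTPA replicate 1 (-0.17). Rps27rt, a copy of Rps27, rose from 60.3, 69.2 and 65.0 TPM to 79.4, 103 and 86.7 TPM (0.46). Only 8.92% of its 50-base stretches are unique, so its rise cannot be told apart from that of Rps27. Rpl36al, Rpl3l and Rpl39l stayed at or under 1.63 TPM in every library. Rps3a2 and Rps3a3 share most of their sequence with other genes, chiefly the Rps3a copies, and Rpl6l with genes that include Rpl6. Rpl37rt shares a smaller part, mostly with Rpl37, and 61.5% of its 50-base stretches are unique. The division of reads among these genes is uncertain. Summed with its copies, Rps3a1 was at 2506, 2489 and 2659 TPM in the control and 3613, 3252 and 3428 TPM under DTPA. Rpl6 with Rpl6l was at 1015, 1021 and 969 TPM and at 1569.8, 1395 and 1467 TPM. These sums had the order of their core genes.

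Rises were also counted by uniqueness of sequence. Of 30 core genes with at least 80% unique stretches, 28 rose (median 0.45), and of 47 with less, 40 rose (0.43). Across the 77 core genes, the log2 fold change had Spearman correlations of 0.08 with uniqueness, 0.07 with exon length and 0.04 with level, as descriptions over genes of the same libraries. Among pseudogene rows of ribosomal protein names, 42 of 113 tested were called higher and 0 lower (median 0.32). Of all symbols, 21.7% were called higher and 36.4% lower. Of 13 core genes with a TOP motif at the annotated first base, 11 rose (median 0.40), and of 44 with none there, 39 rose (0.44).

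Under DTPA at 24 h, ribosomal protein mRNAs were nearer to 0 h. The median core gene stood at 75.9% of its 0 h level. For 51 of 77 core genes, all DTPA libraries lay above every control library and below the 0 h library. For 11 they lay above the 0 h library. The share of all symbols with these orders was not counted. Control and DTPA libraries alone did not overlap, in either direction, for 65.0% of all symbols tested at 24 h. In limma, 8 of 89 members were at least 2-fold lower than at 0 h and 0 were higher (8 at an unadjusted p under 0.05 with no minimum fold), where 27.6% of all 12016 symbols tested were lower and 15.7% higher. With no minimum fold, 53 were lower and 8 higher, against 46.6% and 29.9%. The median was -0.40 against -0.30 for all symbols. This comparison uses the same 0 h library as the control and the same DTPA libraries as the comparison at 24 h, and its values are given beside theirs for that reason.

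Rpl28 was highest against 0 h, at 3695, 4060.0 and 4193 TPM under DTPA (0.89, limma adjusted p = 0.000358), but under 2-fold; it passed that limit under median-of-ratios scaling (1.15). Rpl10, at 1550.1, 1403 and 1482 TPM, had a log2 fold change of 0.43, and Rps20, which binds at the small subunit's head, was at 434, 398 and 428 TPM against 318 at 0 h (0.40). Rpl23a and Rpl13a had 0.39 and 0.39. The 8 members at least 2-fold lower were Rps19bp1 (-1.75), Rpl7l1 (-1.51), Rps10 (-1.32), Rpl22l1 (-1.31), Rps2 (-1.24), Rpl14 (-1.15), Rps27l (-1.13) and Rpl12 (-1.04). Of these, Rps2, Rpl14, Rps27l and Rpl12 were no longer called under median-of-ratios scaling, and Rpl12 was not called without DTPA replicate 2 (-0.98), under quantile normalization (-0.95) or without globin genes (-0.94). Rps10 lost its call with a pseudocount of 5 (-0.72) and under quantile normalization (-0.96). Rplp1, at 0.05 and not called, was called lower under quantile normalization (-1.21). Rpl7l1, Rpl22l1 and Rps27l among them are paralogs.

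**Figure D5:**
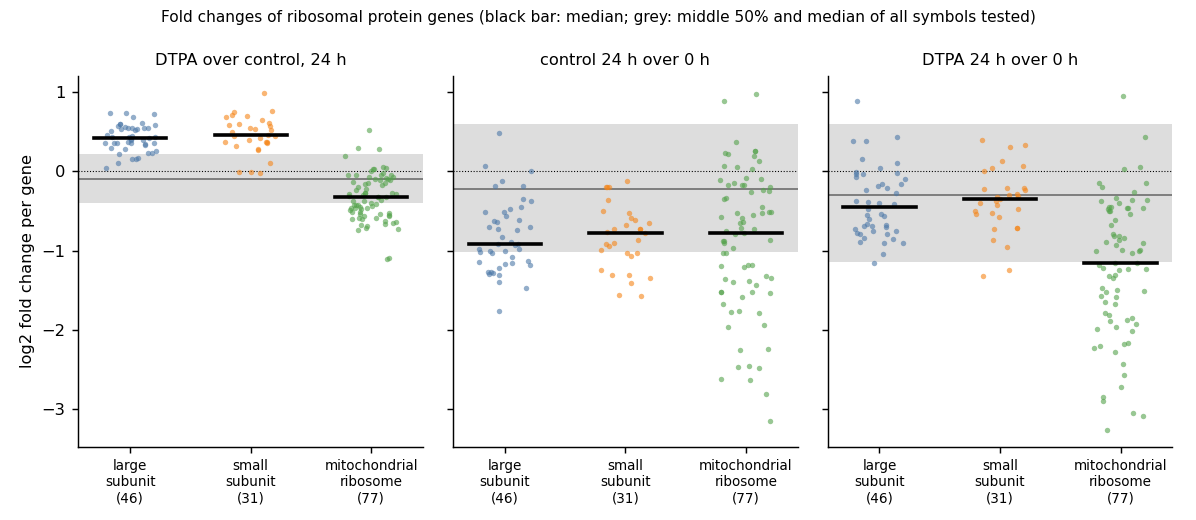
Log2 fold change per gene of large-subunit (blue), small-subunit (orange) and mitochondrial (green) ribosomal protein genes in the 3 comparisons; black bars are medians, and the grey band and line are the middle 50% and the median of all symbols tested. In DTPA over control the medians are 0.42, 0.46 and -0.32.

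Mitochondrial ribosomal protein genes, which serve the ribosome of the mitochondrion, were measured in the same libraries. Of 77 tested, 4 rose and 52 fell under DTPA against the control, with a median of -0.32. Over all symbols tested, 21.7% were called higher and 36.4% lower, with a median of -0.09. From 0 h to the control the mitochondrial median was -0.77, and from 0 h to DTPA it was -1.16. In the same comparisons with 0 h the cytosolic medians were -0.89 and -0.40, and those of all symbols -0.22 and -0.30.

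Of the ribosomal protein genes outside the name rule, Fau, a ubiquitin-like fusion with a small-subunit protein, rose under DTPA from 1360.0 TPM ± 109 to 1808 ± 98.0 (SD, n = 3, 0.41), though not under quantile normalization (0.08). Rack1, a scaffold on the small subunit, rose from 621 ± 19.1 to 947.6 ± 8.95 TPM (0.61). Of 17 other genes with TOP mRNAs, mostly translation factors, 12 rose and 3 fell (median 0.33), where 21.7% of all symbols were called higher. Eef1b2, a subunit of the exchange factor of elongation, rose by 0.69, while Eef1d of the same complex fell by 0.72 and Hnrnpa1, a splicing factor, fell by 0.67. Vim, an intermediate filament gene, rose by 1.11 from 0.833 TPM ± 0.163.

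Genes that regulate TOP mRNAs mostly moved the other way. Of 14 TOP mRNA and mTOR regulators, 1 rose and 11 fell (median -0.33), where 21.7% of all symbols were called higher and 36.4% lower. Larp1, which binds TOP motifs, fell from 312.8 TPM ± 8.73 in the control to 184.8 ± 9.98 under DTPA (-0.76), against 264 TPM at 0 h. Larp4 (-0.49), Rps6kb1, an S6 kinase (-0.48), and Tia1, which binds TOP mRNAs under stress (-0.46), fell too. Of 13 genes for chaperones and import of ribosomal proteins, 1 rose and 8 fell (-0.24), where 36.4% of all symbols were called lower. Ipo5, an import receptor, had the largest fall, -0.83, after 525 TPM at 0 h and 51.4 ± 1.41 in the control. Tsr2, the chaperone of Rps26, fell by 0.58, Ipo11 by 0.49 and Tnpo1 by 0.39. From 0 h to the control 10 of these 13 had fallen at least 2-fold, as had 24.3% of all symbols.

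Of 14 genes for ribosome rescue and turnover, 2 rose and 4 fell under DTPA (median -0.07), shares no higher than the 21.7% and 36.4% of all symbols called higher and lower. Ube2o, a ubiquitin ligase that marks ribosomal proteins for removal in reticulocytes, rose from 34.3 TPM at 0 h to 86.3 ± 3.31 in the control and 173 ± 15.6 under DTPA (0.99). Usp10, which takes ubiquitin off small-subunit proteins (-0.65), and Abce1, which splits ribosomes (-0.46), fell, and Nemf of the quality control of stalled ribosomes fell by 0.28, a call lost under quantile normalization (-0.15).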

How the data were processed

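The values are TPM per symbol as deposited by the authors. Per the submitters' processing notes, Trimmomatic 0.33, FastQC, HISAT2 2.1.0, featureCounts and edgeR were used with mm10. Annotation release, gene lengths, strand setting and treatment of multimapping reads are not given in the sources used here. Repeated symbols were summed. Reads per gene were estimated from the steps of low TPM and GENCODE M21 exon lengths. At 24 h, DTPA was compared with control in limma 3.58.1 (R 4.3.3) on log2(TPM + 1), with a trended variance, over symbols with at least 1 TPM in 3 of 6 libraries, two-sided, Benjamini-Hochberg adjusted p under 0.05 over all symbols tested. Comparisons with 0 h used 1 fit of 7 libraries, symbols with a mean of at least 1 TPM in either group, and also needed a log2 fold change of 1 in size. Fold changes on this scale understate changes of low genes. The fit was tested on simulated data. Genes were named by rule: the 6 most abundant, the 8 largest called changes in each direction at 24 h, the 5 largest in each direction against 0 h (from 5 TPM in the higher group), paralogs with parents, the stalk, 5S and zinc-binding lists, Rps19, and up to 4 called genes of each outside list. Some genes that this rule picks are not reported here. Members and lists were chosen with earlier results of these data known. Alternatives were pseudocounts, filters, scalings, a replicate block and leaving out each replicate.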

Additional observations from a re-analysis of the deposited data

How the results depend on the processing

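Of 2285 values of named genes recomputed under an alternative, 2219 kept their side of the threshold, 30 lost a call and 33 gained one (29 of them by dropping the minimum fold). In all, 24 changed sign, of which 21 were not called in either fit. The others, under quantile normalization, were Rplp1 (-0.094) and Rps29 (-0.050) in DTPA against control and Rplp1 (-1.21), newly called lower, in DTPA against 0 h. The cause was not tested. Median-of-ratios scaling gave 1 member lower and a median of 0.54 in DTPA against control. It gave 20 lower and a median of -0.73 in control against 0 h, and 1 higher, 4 lower and a median of -0.14 in DTPA against 0 h. It moved the median of all symbols from -0.22 to -0.06 and from -0.30 to -0.05 in these. The median of control against 0 h was -0.76 with a pseudocount of 5, -0.83 without globin genes, -0.97 on TPM rescaled without the ribosomal protein genes and -0.79 under quantile normalization; for DTPA against 0 h it was -0.31 without globin genes and -0.46 under quantile normalization. With no minimum fold, 1 member was higher and 78 lower in control against 0 h, and 8 and 53 in DTPA against 0 h. The members' share of TPM was 8.38% in the control and 11.5% under DTPA without globin genes, and 8.96%, 12.0% and, at 0 h, 14.5% with pseudogene rows added. Leaving out each 24 h library in turn gave 73 to 75 members higher and 2 to 3 lower with medians of 0.42 to 0.48 in DTPA against control, 0 higher and 31 to 35 lower with medians of -0.91 to -0.80 in control against 0 h, and 0 higher and 7 to 9 lower with medians of -0.41 to -0.38 in DTPA against 0 h. The median of control against 0 h moved beyond the replicate spread without control replicate 3.

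Replicate numbers did not pair the libraries: deviations of same-numbered control and DTPA libraries correlated at -0.01, 0.024 and -0.01. With a replicate block, 74 members were higher and 2 lower, with a median of 0.44. Rpl19 lost its call and Rpl30 gained one. No paired analysis of the comparisons with 0 h was possible because that group has 1 library. With few reads, as for Rpl24, a difference between DTPA and control was not detectable at this depth.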
